A study of Mus musculus with 5 samples.

Results

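The 10 genes described here mark the epithelium of the embryonic lower jaw: the keratins Krt5, Krt8, Krt18 and Krt19, the junction and adhesion genes Epcam, Cdh1, Cldn6 and Cldn7, and the transcription factor genes Trp63 and Grhl2. They were taken by symbol from the count table, which holds 23441 gene rows. All 10 were present and all 10 passed the filter on low counts. Mandibles were dissected at embryonic day 10.5, and their poly(A) RNA was sequenced in 2 dCKO libraries and 3 control libraries. The dCKO embryos carried floxed alleles of Yap and Taz on both copies (Yapf/f, Tazf/f) together with Wnt1Cre, on a C57BL/6J x CBA/J; 129SvEv background. The controls carried the same floxed alleles with no Cre named, on a 129SvEv background, so background and genotype cannot be told apart. Wnt1Cre acts in the premigratory neural crest, which gives rise to arch mesenchyme, and the epithelium that covers the arch comes from ectoderm and endoderm. Whether each library had its own embryos is not in the labels, and the p-values here may rest on technical spread alone.

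Keratins are the intermediate filament proteins of epithelial cells. A type II keratin pairs with a type I keratin to make a filament: Krt8 pairs with Krt18 or Krt19 in simple epithelia, and Krt5 pairs with Krt14 in the basal layer of stratified epithelia. The early surface ectoderm and the pharyngeal endoderm are simple epithelia, and Trp63 commits ectoderm to stratify. Cdh1 (E-cadherin) and the claudins hold epithelial cells together, and Grhl2 maintains the expression of such junction genes. SNAIL and ZEB repressors bind E-boxes with the core CACCTG and are known to repress epithelial genes, Cdh1 among them.

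The promoters of Krt8, Krt18, Krt5 and Epcam are shown because Krt8 and Krt18 are a keratin pair called higher in dCKO, Krt5 is a basal keratin that was not called, and Epcam is a general epithelial gene. Each sequence is the 250 bases before the gene's start on the gene's own strand, from RefSeq (build GRCm38.p6), with CACCTG and its reverse complement CAGGTG in capitals.
Krt8, chr15:102004343-102004592, minus strand: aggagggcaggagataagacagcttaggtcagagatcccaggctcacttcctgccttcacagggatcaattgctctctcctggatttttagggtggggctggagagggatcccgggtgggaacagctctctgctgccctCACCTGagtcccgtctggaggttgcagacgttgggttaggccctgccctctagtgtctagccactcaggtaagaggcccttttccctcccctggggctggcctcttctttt
Krt18, chr15:102027966-102028215, plus strand: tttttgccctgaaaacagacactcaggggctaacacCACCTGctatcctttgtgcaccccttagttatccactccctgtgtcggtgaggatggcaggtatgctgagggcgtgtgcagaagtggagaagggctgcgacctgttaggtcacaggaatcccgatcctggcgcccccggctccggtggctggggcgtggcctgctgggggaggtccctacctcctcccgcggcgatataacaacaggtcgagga
Krt5, chr15:101712906-101713155, minus strand: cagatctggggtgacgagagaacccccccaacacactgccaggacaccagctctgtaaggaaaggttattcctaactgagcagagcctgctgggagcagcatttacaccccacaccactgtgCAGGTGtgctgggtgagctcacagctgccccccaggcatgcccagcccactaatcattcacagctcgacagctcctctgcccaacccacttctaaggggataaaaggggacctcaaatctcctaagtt
Epcam, chr17:87635729-87635978, plus strand: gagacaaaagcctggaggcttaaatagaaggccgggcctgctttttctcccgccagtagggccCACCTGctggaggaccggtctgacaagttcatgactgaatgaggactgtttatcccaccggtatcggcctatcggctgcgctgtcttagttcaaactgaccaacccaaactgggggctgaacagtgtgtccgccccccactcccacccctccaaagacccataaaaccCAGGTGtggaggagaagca
Krt8, Krt18 and Krt5 each had 1 such match, and Epcam had 2. Of the 10 genes, 6 were matched in the RefSeq table. Cldn6 had 1 match, and Cldn7 had 2 before one of its 2 listed starts and 0 before the other. Over all 32851 promoters of the same length, 17.2% held the motif on either strand. The TEAD motif GGAATG, the motif of the partners of YAP and TAZ, was found before the other start of Cldn7 only among these 6 genes, and in 12.6% of all promoters. The motif AACCGGTT of GRHL factors had 0 matches in these windows, against 0.116% of all promoters. A match describes these letters and is not evidence of binding.

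Library totals were 11346480 and 13298973 counts in dCKO, against 6491137 to 7439419 counts in the controls. Yap1 and Wwtr1 (the symbol of Taz) were lower in both dCKO libraries than in any control (log2 fold changes −1.33 and −1.31, edgeR adjusted p = 1.31e-05 and 1.56e-04). Embryonic globins took 7.43% and 5.30% of counts in dCKO, against 0.335% to 0.441% in the controls, so both dCKO libraries stood apart in their blood content. Control replicate 3 was the control closest to the dCKO libraries (Spearman correlations across genes of 0.974 and 0.977, against 0.969 to 0.973 for the other controls). In bulk tissue, a larger share of epithelial cells and more RNA of a gene per epithelial cell cannot be told apart.

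The simple keratins Krt8, Krt18 and Krt19 were higher in dCKO mandibles, by 1.41-fold to 1.88-fold, and the other 7 genes did not pass the test. That split is one of the threshold, as Krt18 had a log2 fold change of 0.50 and Cldn7, not called, 0.57. Krt18 kept its call in 8 of 13 alternative analyses. With each library's GC trend removed, the genes called were Krt19 and Trp63. Levels are given as CPM, counts as a rate of the TMM-scaled library total, and an adjusted p is from edgeR's quasi-likelihood test with Benjamini-Hochberg adjustment over all 12710 genes tested, called below 0.05. Of the 10 genes, 3 were called higher, where 5.0% of all tested genes were. By edgeR, DESeq2 and limma-voom 0 were called lower, where 1.42% of all tested genes were by edgeR. In edgeR 0 of the 10 had a log2 fold change below 0, where 6347 of the 12710 tested genes lay above 0. Both dCKO libraries exceeded all 3 controls in 8 of the 10, the exceptions being Krt5 and Cdh1, against 19.0% of all tested genes. The median log2 fold change of the 10 genes was 0.48, against −0.00062 for all tested genes. The 10 genes were chosen with earlier results of these data known, so these shares describe them and are no test of the set. Their summed level was 579.9 and 555.2 CPM in dCKO, against 400.1, 473.5 and 365.9 CPM in control replicates 1, 2 and 3.

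**Figure D1:**
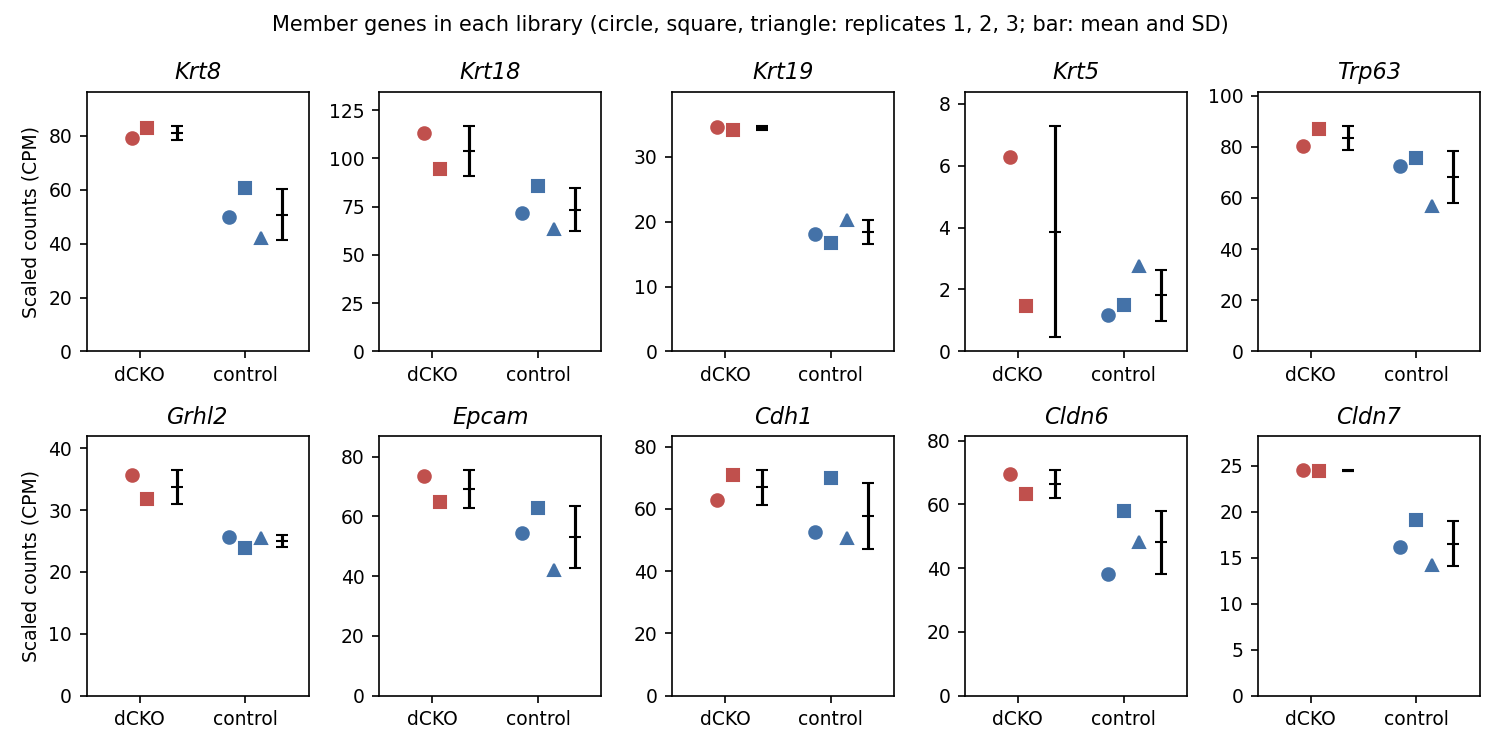
Scaled counts in CPM (y axis, from 0) of each of the 10 genes in the 2 dCKO and 3 control libraries; symbols are replicates, and the bar beside each group is its mean and SD. Krt19 shows the widest gap between the groups relative to its spread, whereas the single high library of Krt5 is dCKO replicate 1.

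Krt19, a type I keratin of simple epithelia that lacks the usual tail domain, measured 34.7 and 34.2 CPM in dCKO replicates 1 and 2, against 18.1, 16.6 and 20.3 CPM in control replicates 1, 2 and 3. The lowest dCKO library was 1.68 times the highest control. Krt19 rose by 0.91 on the log2 scale (SE 0.16, edgeR adjusted p = 0.00122), and the call held in all 13 alternative analyses, with adjusted p up to 0.0204. Krt8, the type II keratin of simple epithelia, measured 79.4 and 83.0 CPM in dCKO, against 49.8, 60.6 and 42.0 CPM in control tissue. Both dCKO libraries lay above every control, 1.31 times the highest at the least. Krt8 rose by 0.67 (SE 0.14, edgeR adjusted p = 0.00519) and lost its call without dCKO replicate 2 (adjusted p = 0.067). Krt18, its type I partner, measured 113.0 and 94.6 CPM in dCKO, against 71.5, 85.6 and 63.4 CPM in control tissue. The groups did not overlap, but the lower dCKO library was only 1.10 times the highest control. Krt18 rose by 0.50 (SE 0.13, edgeR adjusted p = 0.0322). It was not called once control 1 (0.146), control 3 (0.0657), dCKO 1 (0.364) or dCKO 2 (0.0558) was left out.

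Krt8 and Krt18 lie near each other on chromosome 15, with 2 genes, Gm36026 and Gm41404, annotated between them by RefSeq in GRCm38.p6. The longest coding transcript of Krt8 in GENCODE M21 shares a stretch of 941 bases at 95% identity or more with the processed pseudogene Krt8-ps. In GENCODE M21 the antisense gene Gm36026 overlaps exons of Krt8, so the annotations differ on where it lies. Neither Krt8-ps nor Gm36026 has a row in the count table. The sources used here do not tell how the authors' counting treated such reads. Krt18 and Krt19 had no such copy and no overlapping exon. Antisense genes also overlap exons of Krt5 (Gm44323) and Grhl2 (Gm16136), and neither has a row in the count table.

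The basal genes did not pass the test. Krt5, the type II keratin of basal cells, measured 6.28 and 1.45 CPM in dCKO, against 1.18, 1.49 and 2.75 CPM in control tissue, from 68 and 19 counts against 9, 11 and 18. Only dCKO replicate 1 was high, and dCKO replicate 2 lay within the controls. The log2 fold change was 1.09 (SE 0.55, edgeR adjusted p = 0.26) and turned to −0.28 without dCKO replicate 1. Trp63, the p63 transcription factor of stratifying ectoderm, measured 80.2 and 86.8 CPM in dCKO, against 72.7, 75.6 and 56.7 CPM in control tissue. The groups did not overlap, with the lower dCKO library at 1.06 times the highest control. The log2 fold change was 0.29 (SE 0.13, edgeR adjusted p = 0.218).

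The 4 junction and adhesion genes had log2 fold changes of 0.21 to 0.57, and edgeR, DESeq2 and limma-voom each called 0 of them. Of these 4, 3 had an unadjusted p below 0.05 in edgeR's test, namely Cldn6, Cldn7 and Epcam, where 21.5% of all tested genes did. Cldn7, a tight junction claudin that binds the Epcam protein, measured 24.5 and 24.4 CPM in dCKO, against 16.2, 19.1 and 14.2 CPM in control tissue. Both dCKO libraries lay above every control (log2 fold change 0.57, SE 0.18, edgeR adjusted p = 0.0736). Cldn6, a claudin of embryonic epithelia, measured 69.5 and 63.3 CPM in dCKO, against 38.2, 57.9 and 48.3 CPM in control tissue. Its groups did not overlap (log2 fold change 0.46, SE 0.15, edgeR adjusted p = 0.0812), and it was called without control replicate 2 (adjusted p = 0.0227). Epcam, an adhesion protein of the surface of epithelial cells, measured 73.7 and 64.8 CPM in dCKO, against 54.4, 62.8 and 42.0 CPM in control tissue, with a gap of 1.03 times between the nearest libraries (log2 fold change 0.38, SE 0.15, edgeR adjusted p = 0.149). Cdh1, the cadherin of epithelial adherens junctions, measured 62.9 and 70.8 CPM in dCKO, against 52.4, 69.9 and 50.7 CPM in control tissue. Control replicate 2 lay above dCKO replicate 1, so the groups overlapped (log2 fold change 0.21, SE 0.15, edgeR adjusted p = 0.421).

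Grhl2, the grainyhead factor of embryonic epithelia, measured 35.7 and 31.9 CPM in dCKO, against 25.6, 23.9 and 25.5 CPM in control tissue. Its controls were the tightest of the 10 genes, the highest being 1.07 times the lowest, and both dCKO libraries lay above them. The log2 fold change was 0.43 (SE 0.16, edgeR adjusted p = 0.109).

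Among the controls the genes tended to share their order. Control replicate 2 was the highest control for 7 of the 10 and control replicate 3 the lowest for 6, with Krt19 and Krt5 highest in control replicate 3. The highest control was 1.07 to 2.33 times the lowest over the 10 genes, and the higher dCKO library was 1.003 to 4.32 times the lower, both extremes at the top being Krt5.

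To set genes beside each other, the mean CPM was divided by the length of the longest coding transcript in GENCODE M21, which may differ from the authors' gene models. In dCKO tissue the level per kilobase was 72.2 ± 9.09 CPM for Krt18, 41.5 ± 1.31 for Krt8, 40.9 ± 2.69 for Cldn6, 33.9 ± 3.08 for Epcam and 21.8 ± 0.227 for Krt19 (SD, n = 2). In control tissue it was 51.1 ± 7.83 for Krt18, 29.7 ± 6.06 for Cldn6, 26.0 ± 5.12 for Epcam, 25.9 ± 4.77 for Krt8 and 11.7 ± 1.17 for Krt19 (SD, n = 3). Krt18 thus led in both groups, and Cldn6, Epcam and Krt8 lay within 1 SD of each other in control tissue. Cldn7, Trp63 and Cdh1 followed at 18.3, 15.6 and 15.1 CPM per kilobase in dCKO, against 12.3, 12.7 and 13.02 in control tissue, where these 3 and Krt19 lay within their SDs of each other. Grhl2 stood at 6.83 and 5.06 CPM per kilobase in dCKO and control tissue. Krt5 was lowest, at 1.76 CPM per kilobase in dCKO and 0.822 in control tissue.

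The ratio of simple keratins to Cdh1 and Epcam was higher in both dCKO libraries than in any control, by an amount that fell when the GC trend was removed. The summed CPM of Krt8, Krt18 and Krt19 was 1.66 and 1.56 times the sum of Cdh1 and Epcam in dCKO replicates 1 and 2, against 1.31, 1.23 and 1.36 times in the controls. The 2 groups did not overlap. The 3 keratins are the genes called higher, at log2 fold changes of 0.50 to 0.91, against 0.21 for Cdh1 and 0.38 for Epcam. A higher ratio in dCKO thus follows from the choice of genes and is no separate result. The mean ratio was 1.61 ± 0.07 in dCKO and 1.30 ± 0.06 in control tissue (SD, n = 2 and 3), and no test was made because the genes were chosen with earlier results known. The difference of the mean log2 ratio was 0.32 and ranged from 0.27 to 0.36 with single libraries left out. With the GC trend removed, an alternative chosen after seeing the data, the ratio was 1.54 and 1.47 in dCKO, against 1.43, 1.31 and 1.33 in control tissue, and the difference of the mean log2 ratio was 0.15. The nearest libraries of the groups then lay closer together, dCKO replicate 2 and control replicate 1. The ratio of Krt8 to Krt18 was 0.70 and 0.88 in dCKO, against 0.70, 0.71 and 0.66 in control tissue, so only dCKO replicate 2 stood above the controls. The ratio of Krt19 to Cdh1 was 0.55 and 0.48 in dCKO, against 0.35, 0.24 and 0.40 in control tissue. It sets the called gene of largest log2 fold change against the gene of smallest, so its direction also follows from the choice.

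**Figure D2:**
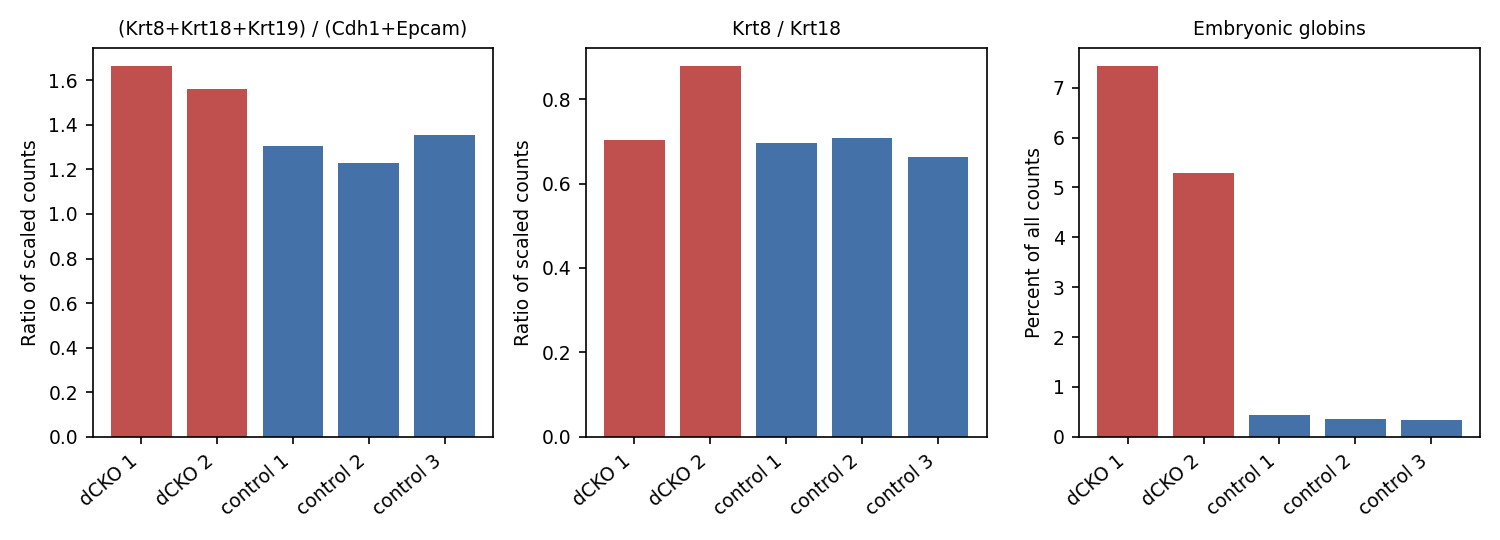
Bars, from 0, give for each of the 5 libraries the ratio of summed simple keratins to summed Cdh1 and Epcam with no GC correction (left), the ratio of Krt8 to Krt18 (middle) and the percent of all counts taken by Hba-x, Hbb-bh1 and Hbb-y (right). Both dCKO libraries lie above the controls in the left and right panels, and in the middle panel only dCKO replicate 2 does.

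The larger differences were those of GC-rich genes. Krt19, Krt8, Cldn7, Krt5 and Krt18 have transcripts of 56.4% to 57.6% GC and log2 fold changes of 0.50 to 1.09. The 1.09 is that of Krt5, where only dCKO replicate 1 was high. Cldn6 and Epcam, at 54.4% and 52.7% GC, had 0.46 and 0.38. Grhl2, Cdh1 and Trp63, at 50.2%, 50.7% and 44.2% GC, had 0.43, 0.21 and 0.29. Grhl2 (SE 0.16) and Krt18 (SE 0.13) lay within their SEs of each other. After a GC trend was fitted to every library and taken out, 2 of the 10 genes were called higher, where 4.29% of all tested genes were: Krt19 (log2 fold change 0.68, SE 0.15, edgeR adjusted p = 0.00984) and Trp63 (0.45, SE 0.11, 0.0223). Krt8 and Krt18 were no longer called, at 0.44 (SE 0.15, edgeR adjusted p = 0.111) and 0.28 (SE 0.14, 0.285). The median over the 10 genes was 0.39 in that analysis, against −0.013 for all tested genes. The log2 fold change stayed above 0 in 10 of the 10. The part of GC content in the differences was not tested.

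**Figure D3:**
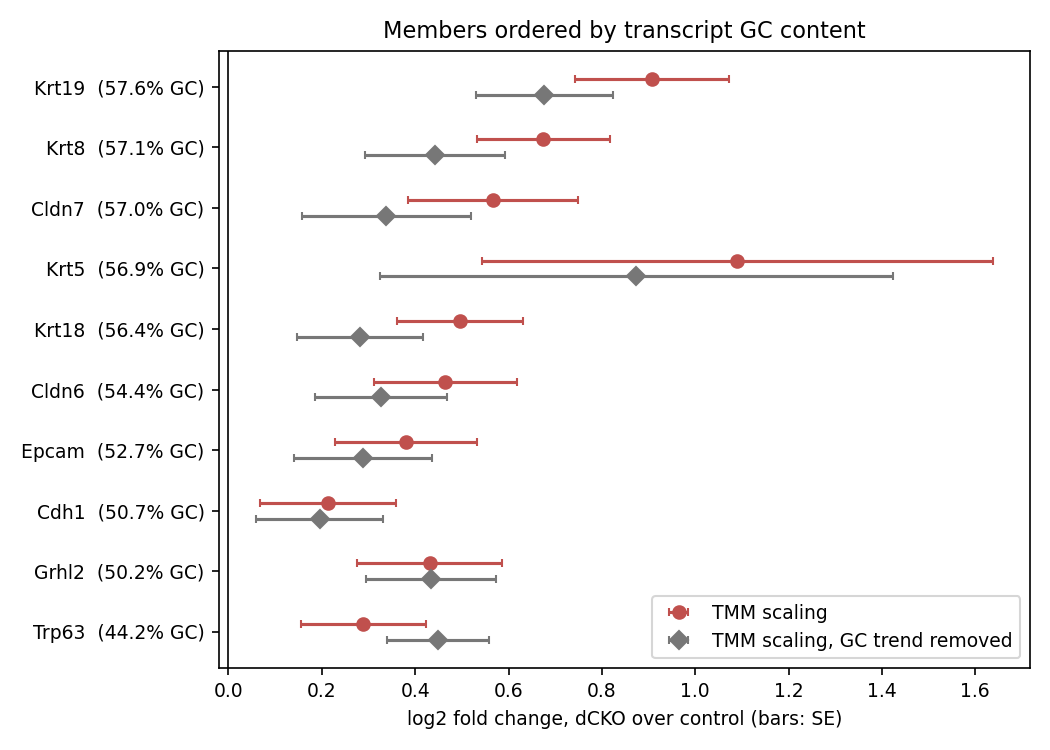
Log2 fold change of dCKO over control with its SE (x axis) for the 10 genes, ordered by the GC content of the longest coding transcript, before (circles) and after (diamonds) removal of the GC trend. The points of the GC-rich genes at the top shift to the left and that of Trp63 to the right.

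The wider set of epithelial genes was described with 4 lists of 86 genes, all in the table, of which 56 passed the filter. Genes that passed only through the group where they are high had to differ, so the counts describe the tested genes alone. Of the 56, 9 were called higher and 1 lower, where 5.0% and 1.42% of all tested genes were, and the median log2 fold change was 0.45. The lists, here and below, were also chosen with earlier results known, so such shares are no test of a list. The 9 genes became 3 without control replicate 1, 14 without control replicate 3, 2 without dCKO replicate 1 and 5 without dCKO replicate 2. After removal of the GC trend 6 were called, of which 4 were among the 9. The other keratins summed to 109.7 and 86.5 CPM in dCKO, against 58.3 to 72.1 CPM in the controls. Tight junction genes summed to 473.0 and 513.7, against 444.4 to 453.4 CPM. Adherens junction and desmosome genes summed to 1121 and 1126, against 1070 to 1110 CPM. The list of regulators, proteases and basement membrane genes overlapped, at 1149 and 1152, against 997.9 to 1167 CPM. Genes of high level weigh most in such sums.

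Of 25 other keratins 6 were tested, and Krt7, another type II keratin of simple epithelia, was the 1 called. Krt7 measured 52.6 and 45.2 CPM in dCKO, against 28.9, 36.4 and 36.1 CPM in control tissue (log2 fold change 0.53, SE 0.15, edgeR adjusted p = 0.0406), and was not called once control 1, dCKO 1 or dCKO 2 was left out (0.191, 0.35 and 0.07), nor after removal of the GC trend (0.062). Krt14, the basal partner of Krt5, measured 28.3 ± 3.46 and 21.5 ± 2.41 CPM in dCKO and control tissue (SD, n = 2 and 3, edgeR adjusted p = 0.182). Krt15, Krt17, Krt10 and Krt1, which belong to basal, stress-responsive and suprabasal epidermis, had log2 fold changes of 0.45, 0.36, 0.51 and 1.85 and were not called.

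Of 18 tight junction genes 15 were tested and 3 rose. Cldn4, a sealing claudin of embryonic epithelia, measured 66.1 and 51.9 CPM in dCKO, against 27.5, 31.4 and 33.0 CPM in control tissue, with a gap between the groups. It rose by 0.95 on the log2 scale (SE 0.15, edgeR adjusted p = 2.89e-04), and was called with each library left out (up to 0.0232) and after removal of the GC trend (0.0022). Cldn3, another claudin, averaged 8.14 ± 0.90 CPM in dCKO and 3.74 ± 0.85 CPM in control tissue, and Tjp3, a scaffold of tight junctions, 16.0 ± 2.08 and 9.17 ± 0.71 CPM (SD, n = 2 and 3, edgeR adjusted p = 0.0321 and 0.0275). Cldn3 was not called once control 1, dCKO 1 or dCKO 2 was left out (0.154, 0.275 and 0.107), and Tjp3 once any library but control 3 was (0.0722 to 0.243). Neither was called after removal of the GC trend (0.106 and 0.15). F11r, which encodes the junctional adhesion molecule JAM-A, had a log2 fold change of 0.44 (edgeR adjusted p = 0.0746) and was called there (0.0487). Cgn and Cldn1 were not called, at 0.38 and 1.19.

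Of 15 genes of adherens junctions and desmosomes, the spot-like junctions to which keratin filaments attach, 12 were tested and 2 rose, both plakophilins. Pkp2 averaged 13.4 ± 0.41 CPM in dCKO and 6.49 ± 1.161 CPM in control tissue, and Pkp3 17.4 ± 0.12 and 10.6 ± 1.35 CPM (SD, n = 2 and 3, edgeR adjusted p = 0.0111 and 0.0408). Pkp2 lost its call without dCKO replicate 1 (0.114) or dCKO replicate 2 (0.0722) and kept it after removal of the GC trend (0.016). Pkp3 was not called once any library but control 3 was left out (0.109 to 0.211), nor after removal of the GC trend (0.184) or by DESeq2 (0.0555). Dsc2, a desmosomal cadherin, had a log2 fold change of 0.77 (edgeR adjusted p = 0.0916) and was called after removal of the GC trend (0.0272). Desmoplakin (Dsp), plakoglobin (Jup) and periplakin (Ppl) were not called, with log2 fold changes of 0.36, 0.31 and 0.55.

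Of 28 epithelial regulators, surface proteases and basement membrane genes, 23 were tested, 3 rose and 1 fell. St14, the membrane protease matriptase, measured 55.6 and 47.6 CPM in dCKO, against 26.9, 34.2 and 32.5 CPM in control tissue (log2 fold change 0.72, SE 0.15, edgeR adjusted p = 0.00441). St14 lost its call without dCKO replicate 1. Lama5, a laminin chain of basement membranes, averaged 115.5 ± 15.9 CPM in dCKO and 73.2 ± 15.01 CPM in control tissue (SD, n = 2 and 3, edgeR adjusted p = 0.0075, and 0.0622 without control replicate 1 and 0.166 without dCKO replicate 2). Esrp2, an epithelial splicing regulator, averaged 15.1 ± 1.59 and 8.74 ± 1.46 CPM in dCKO and control tissue (SD, n = 2 and 3, edgeR adjusted p = 0.0409), and was not called once control 1, dCKO 1 or dCKO 2 was left out (0.187, 0.318 and 0.102), nor by DESeq2 (0.0555). St14 and Lama5 were also called after removal of the GC trend (0.0436 and 0.0446), and Esrp2 was not (0.129). Prom1, a membrane protein of apical protrusions found in many progenitor cells, fell by 0.43 on the log2 scale (SE 0.12, edgeR adjusted p = 0.0382). It was not called once any library but control 3 was left out (0.0615 to 0.244), nor after removal of the GC trend (0.0962). Rab25 and Spint1 were not called, with log2 fold changes of 1.05 and 0.58.

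**Figure D4:**
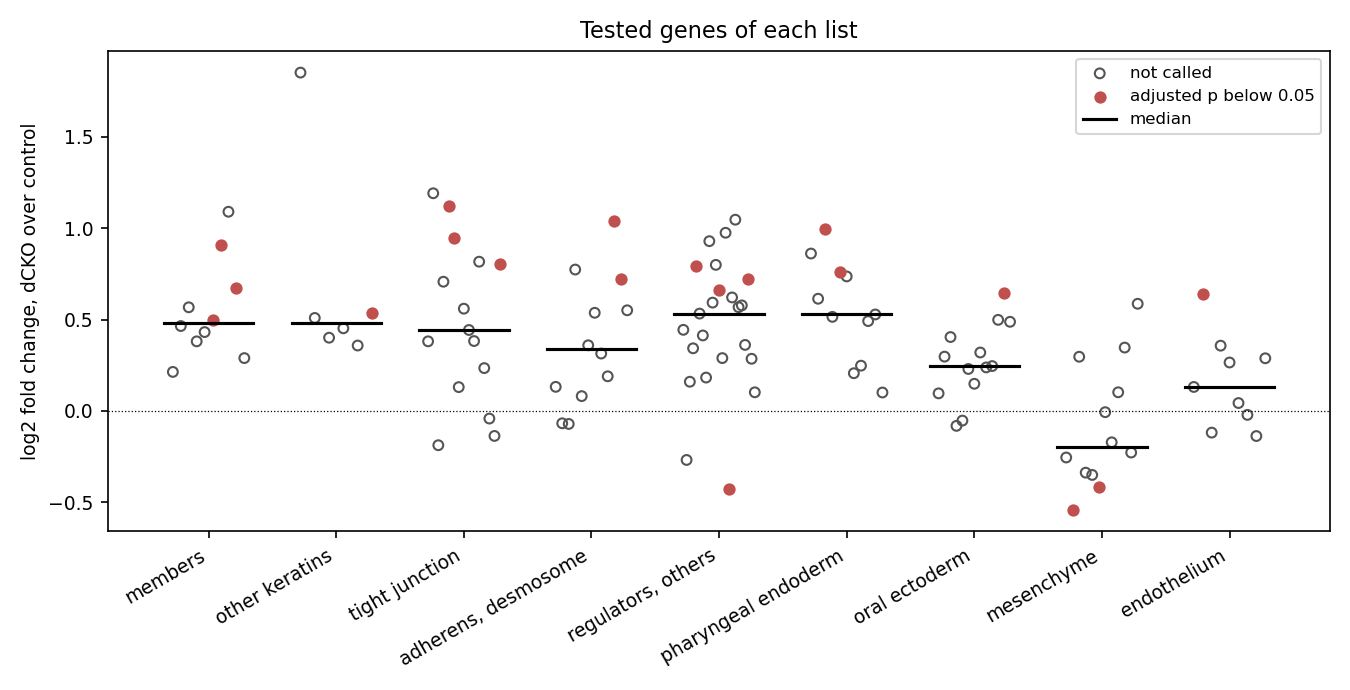
Log2 fold change of dCKO over control (y axis) for each tested gene of the 10 genes described here (members), of 4 lists of other epithelial genes, and of lists for pharyngeal endoderm, oral ectoderm, mesenchyme and endothelium; filled points passed edgeR's test and bars are medians. The median was 0.48 for the 10 genes and −0.20 for mesenchyme.

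Markers of the 2 epithelial sources and of other cells were read beside these values. Of 13 pharyngeal endoderm genes 11 were tested. Foxe1, a forkhead factor of foregut and oral epithelium, averaged 10.5 ± 0.92 CPM in dCKO and 5.27 ± 1.62 CPM in control tissue, and the homeobox gene Nkx2-3 19.9 ± 0.39 and 11.7 ± 1.12 CPM (SD, n = 2 and 3, edgeR adjusted p = 0.0407 and 0.0213). Neither was called once control 1 (0.19 and 0.113), dCKO 1 (0.285 and 0.129) or dCKO 2 (0.124 and 0.133) was left out, or after removal of the GC trend (0.145 and 0.142). DESeq2 did not call Foxe1 (0.0541). The list had a median log2 fold change of 0.53, and Foxa1 and Shh were not called (0.86 and 0.49). Of 14 genes of oral ectoderm and its signals 13 were tested, with a median of 0.25. Wnt6, a WNT ligand of surface ectoderm, measured 60.6 and 53.8 CPM in dCKO, against 33.4, 34.5 and 41.9 CPM in control tissue (log2 fold change 0.65, SE 0.14, edgeR adjusted p = 0.00802). It was not called once control 1 (0.0562) or dCKO 1 (0.14) was left out, nor after removal of the GC trend (0.0757). Wnt4, Wnt7b and Bmp7 were not called, at 0.50, 0.49 and 0.30.

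Of 12 genes of mesenchyme and of the repressors of epithelial genes, 12 were tested, of which 2 fell and 10 were not called, with a median of −0.20. By unadjusted p below 0.05, 7 of the 12 differed in either direction, where 21.5% of all tested genes did. The summed level of the list was 1991 and 2034 CPM in dCKO, against 2264 to 2343 CPM in control tissue. N-cadherin (Cdh2) averaged 67.3 ± 4.05 CPM in dCKO and 98.0 ± 5.36 CPM in control tissue, and the arch mesenchyme factor Prrx1 490.5 ± 66.0 and 654.1 ± 69.7 CPM (SD, n = 2 and 3, edgeR adjusted p = 0.007 and 0.0442). Cdh2 was not called once dCKO 1 (0.149) or dCKO 2 (0.0583) was left out, and Prrx1 once control 1 (0.261) or dCKO 1 (0.433) was left out or the GC trend removed (0.199), and with the stricter filter (0.0638). Of the 5 repressors of epithelial genes in the list, 0 were called by edgeR, DESeq2 or limma-voom, Zeb2 being the 1 with an unadjusted p below 0.05 in edgeR's test. After removal of that trend Zeb2 was called higher (log2 fold change 0.79, edgeR adjusted p = 0.0452), and Zeb1, Snai1, Snai2 and Twist1 were not, at −0.12, −0.27, 0.015 and −0.17. Pdgfra and Vim were not called by edgeR, at −0.35 and 0.35. DESeq2 called Pdgfra lower (adjusted p = 0.0428), and limma-voom did not (adjusted p = 0.0615). The part of a lower share of mesenchyme in the epithelial values was not tested.

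Of 9 endothelial genes 9 were tested and Cldn5, the endothelial claudin, was called higher (log2 fold change 0.64, edgeR adjusted p = 0.0428). It was not called once control 1 (0.0766), control 2 (0.17) or dCKO 1 (0.442) was left out, or after removal of the GC trend (0.289), while Esam, Tie1 and Flt1 were not called (0.36, 0.29 and 0.26). The endothelial list had a median log2 fold change of 0.13, with 6 of the 9 genes above 0. Pecam1, Tek and Emcn lay below 0, at −0.022, −0.14 and −0.12. Its summed level was 292.5 and 339.8 CPM in dCKO, against 265.7 to 298.2 CPM in control tissue. Yolk sac and trophoblast also express simple keratins. The 12 genes of that list summed to 4.81 and 5.21 CPM in dCKO, against 5.52 to 10.8 CPM in control tissue, and highest in control 3. Tpbpa, which marks trophoblast, had 0 counts in all 5 libraries, which allows up to 0.462 CPM before scaling in the shallowest. Ttr, which marks yolk sac, had 0 counts in 4 libraries and 6 counts in control 3. Of its 3 tested genes Apob fell (log2 fold change −2.38, edgeR adjusted p = 0.0128, lost without dCKO replicate 1 at 0.203 or dCKO replicate 2 at 0.0789). Plac1 and Afp were not called. The 9 genes of mesothelium and heart summed to 10.4 and 12.7 CPM in dCKO, against 60.8, 8.25 and 11.3 CPM in control replicates 1, 2 and 3. Myl2, a ventricular myosin light chain gene, measured 1.39 and 1.07 CPM in dCKO, against 28.5, 0.676 and 2.90 CPM in control tissue. Only control 1 was high. It was called lower (edgeR adjusted p = 0.0452), but not once control 1 (0.789), dCKO 1 (0.229) or dCKO 2 (0.211) was left out, nor after removal of the GC trend (0.0823), by DESeq2 (0.288), by limma-voom (0.349) or with the stricter filter (0.0597). Myh6, Actc1 and Myh7 were not called. Of the 12 erythroid genes, 11 were in the table, and of the 9 tested 9 rose. With that list left out of library sizes and scaling, Krt8, Krt18 and Krt19 stood at log2 fold changes of 0.67, 0.49 and 0.91 and were called.

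The authors' deposited table gave a log2 fold change of 0.93 for Krt19 (adjusted p = 2.63e-04) and 0.70 for Krt8 (adjusted p = 0.00171). In the authors' deposited table Krt18 stood at 0.52 with an adjusted p of 0.185, so that 2 of the 10 genes passed 0.05 there, both higher in dCKO, where 2.62% of its 18611 rows did. The unadjusted p in the authors' deposited table was below 0.05 for 6 of them, Krt8, Krt18, Krt19, Cldn6, Cldn7 and Grhl2, against 10.1% of its rows in either direction.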

How the data were processed

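Poly(A) RNA was made into libraries by the Ion Total RNA-Seq v2 protocol, per the labels. The deposited count table holds raw reads per gene symbol. The submitters' processing notes name HTSeq (0.5.4p3), DESeq (1.16.0) and the build mm9. Aligner, annotation and strand use: not given in the sources used here. Per the file headers, the authors' second table holds a signal (mean normalized counts over all libraries and per group), a fold change as a ratio and its log2 value, and p-values. Count columns headed WT were matched to the control titles by replicate number.

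The count test was edgeR (4.0.16, in R 4.3.3): filterByExpr (minimum count 10, total 15; 12710 genes kept), TMM, and the quasi-likelihood test, two-sided, dCKO over control, with Benjamini-Hochberg adjustment and a threshold of 0.05. SEs are |log2 fold change| divided by the root of F. Scripts were tested on simulated data. Alternatives were RLE scaling, scaling without erythroid genes, DESeq2 1.42.0, limma-voom (limma 3.58.1), 2 other filters (1 count in all; 1 CPM in 2 libraries with a mean of 5 CPM), removal of each library's GC trend (lowess span 0.3; GENCODE M21 transcripts, 99.3% of genes), each library left out, and a replicate block; the GC-corrected ratio was added after seeing the data. With a dCKO library left out, the lone one is assumed to vary like the controls. The 10 genes and the lists were chosen with earlier results of these data known. Named from the lists were the 6 genes of smallest p of each epithelial list and the 4 of each other list; Ttr, Tpbpa and the repressors of epithelial genes, and the keratins among the other observations, were named after their values were seen. The limit for a count of 0 is 3 counts and covers counting error only. RefSeq starts are in GRCm38.p6, another build than mm9, and were used for sequence only; motifs were read on both strands.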

Additional observations from a re-analysis of the deposited data

How the results depend on the processing

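Of the 10 genes, 3 were called higher in the main analysis, and 1 to 4 with single libraries left out (1 without dCKO replicate 2, 4 without control replicate 2). Leaving out single libraries moved the other counts as well: 403 to 950 genes higher in all (main 636), 39 to 687 lower (main 180), 2 to 14 other epithelial genes higher (main 9) and 0 to 2 lower (main 1). With no filter beyond 1 count, 305 genes were lower and 15 other epithelial genes higher. Removal of the GC trend left 0 other epithelial genes lower, and put the difference of the mean log2 ratio of simple keratins to Cdh1 and Epcam at 0.15 (main 0.32), an alternative chosen after seeing the data. The replicate block gave 1200 genes higher and 921 lower, 14 other epithelial genes higher and 2 lower, and 4 of the 10 genes higher, Cldn6 being added (adjusted p = 0.0371). Nothing in the labels says that the replicate numbers pair libraries. The deviations of same-numbered libraries had correlations across genes of 0.0836 and −0.00424, against −0.0836 to 0.0746 for differently numbered ones. These values show no clear pairing by number. RLE scaling, DESeq2, limma-voom, the stricter filter and scaling without erythroid genes each called Krt8, Krt18 and Krt19. The direction turned, none of these genes being called in the main analysis, for Krt5 (−0.28 to 1.81 with single libraries left out), Krt15 (−0.13 to 0.89), Afp (−0.65 to 1.25) and Myh7 (−0.38 to 0.25) without dCKO replicate 1, and for Actc1 (−1.02 to 0.81) without control replicate 1; the cause was not tested. Of 789 values of single genes under an alternative, 685 kept direction and side of the threshold, 72 lost a call and 27 gained it. Krt5 was not tested under the stricter filter. Low counts limit Krt5 (9 to 68 counts per library).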

Other observations

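The keratins of stratified epithelium differed in how they split between the dCKO libraries. Of the 25 other keratins, 12 had a higher CPM in dCKO replicate 1 and 10 in dCKO replicate 2, and 3 had 0 counts in both. The counts below are not scaled, and library totals were 11346480 and 13298973 in dCKO, against 6491137 to 7439419 in the controls. Krt4, the type II keratin of mucosal stratified epithelium, had 34 counts in dCKO replicate 1 and 0 in dCKO replicate 2 (which allows up to 0.226 CPM before scaling), against 1, 0 and 1 counts in control replicates 1, 2 and 3. Krt1, a suprabasal epidermal keratin, had 58 and 15 counts in dCKO replicates 1 and 2, against 7, 10 and 2 in the controls. Krt5 had 68 and 19 counts in dCKO, against 9, 11 and 18 in the controls. Krt6a, a keratin of periderm and wounded epidermis, had 9 and 3 counts in dCKO and 0 in each control, and Krt13, the type I partner of Krt4, had 4 and 0 in dCKO and 0 in each control. A count of 0 allows up to 0.403 to 0.462 CPM before scaling in the controls. Krt6a in dCKO replicate 2 (0.230 CPM) and Krt13 in dCKO replicate 1 (0.370 CPM) lay below that limit. Krt15 was also higher in dCKO replicate 1, with 83 and 49 counts in dCKO, against 20, 42 and 27 in the controls. So was Krt75, with 7 and 2 counts in dCKO, against 4, 0 and 0 in the controls. Krt14, Krt10, Krt78, Krt79 and Krt80 did not follow that split between the dCKO libraries. Krt14, the partner of Krt5, had 333 and 338 counts in dCKO, against 148, 154 and 158 in the controls. In scaled values Krt14 measured 30.8 and 25.9 CPM in dCKO, against 19.4, 20.8 and 24.1 CPM in the controls. Krt10, the partner of Krt1, had 49 and 69 counts in dCKO, against 25, 37 and 13 in the controls. Krt78, Krt79 and Krt80 had 0, 0 and 2 counts in dCKO replicate 1 and 5, 3 and 7 in dCKO replicate 2, with at most 1 count in a control. In the same 2 libraries Krt19 stood at 34.7 and 34.2 CPM. These genes were named after their values were seen, and no test was made.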
